A study of Gasterosteus aculeatus with 62 samples.

Results

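Male threespined sticklebacks (Gasterosteus aculeatus) that were shown a gravid female together with a model trout were compared with males shown the model trout without a female, in the diencephalon. The libraries were chosen by their labels, diencephalon and treatment B or P, which gave 8 tradeoff males (numbers 1, 6, 11, 13, 25, 28, 39 and 46) and 8 predator males (numbers 17, 23, 24, 33, 34, 37, 42 and 44), 16 of the 62 libraries of the series. All were nesting males whose brains were taken 1 hour after the trial, and each library came from 1 male, so the spread within a group is a spread between animals. Tradeoff males had a live gravid female together with a model trout. Predator males had a caged model trout with odour cues, and since the labels do not repeat the odour cues for the tradeoff, both groups may also differ in odour. The remaining diencephalon libraries, from 7 control males with empty cages and 8 courtship males with a caged female and no trout, entered the fit and are given for reference. Neither age nor population of origin is stated in the labels.

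The diencephalon holds the thalamus and the hypothalamus. The hypothalamus releases peptides that set pituitary secretion, and in fish as in other vertebrates it takes part in courtship, in the stress response and in feeding. A gravid female is a courtship stimulus, and the comparison asks what she changes in this region while a predator stimulus is in view. None of the 22295 gene models in the count files matched the gene name table used here, so genes are given by identifier, with no symbol or role, and the labelled tissue could not be checked against named markers. An identifier with chrY in its name is a model that the annotation placed on the Y chromosome.

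Counts in gene models ran from 26.6 to 44.2 M reads in the tradeoff libraries and from 30.3 to 46.6 M in the predator libraries. A regional index was set on control and courtship males only, as the mean log2 level of genes high in the telencephalon minus that of genes high in the diencephalon. It was -1.15 to -0.896 in tradeoff and -1.24 to -0.909 in predator diencephalon, so the groups overlapped. Reads that aligned to several places made up 4.66% to 14.4% of the tallied reads in tradeoff and 6.37% to 14.6% in predator libraries. Over 12 library measures, including depth, read tallies, the regional index and 3 principal components, no difference between the groups passed (smallest unadjusted p = 0.103 and adjusted p = 0.716, two-sided exact permutation test). That smallest p belonged to the first component, which held 14.6% of the variance. On it, tradeoff libraries averaged -9.84 (SD 21.1, n = 8) and predator libraries 9.84 (SD 23.4, n = 8). The telencephalon library of predator male 42 stands apart from the other telencephalon libraries, and telencephalon values are given below with and without it. The 10 genes with the most counts held 11.8% of its gene counts, against at most 9.83% in the other telencephalon libraries.

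No gene passed an adjusted p of 0.05 between tradeoff and predator diencephalon (0 of 18942 tested, 0%, edgeR quasi-likelihood test, smallest adjusted p = 0.333). An unadjusted p under 0.05 was found for 888 genes, 4.69% of those tested, of which 396 (2.09%) were estimated higher and 492 (2.6%) lower in tradeoff males. A share of about 0.05 falls under this threshold when no gene differs, and 4.69% is not above it. The 888 genes are described below and are not taken as a set that responded. DESeq2 called 3 genes (0.0159% of 18898), and voom with sample quality weights called 1. These calls were among the 4 genes with the 2 smallest p in each direction by edgeR, which are described first.

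**Figure D1:**
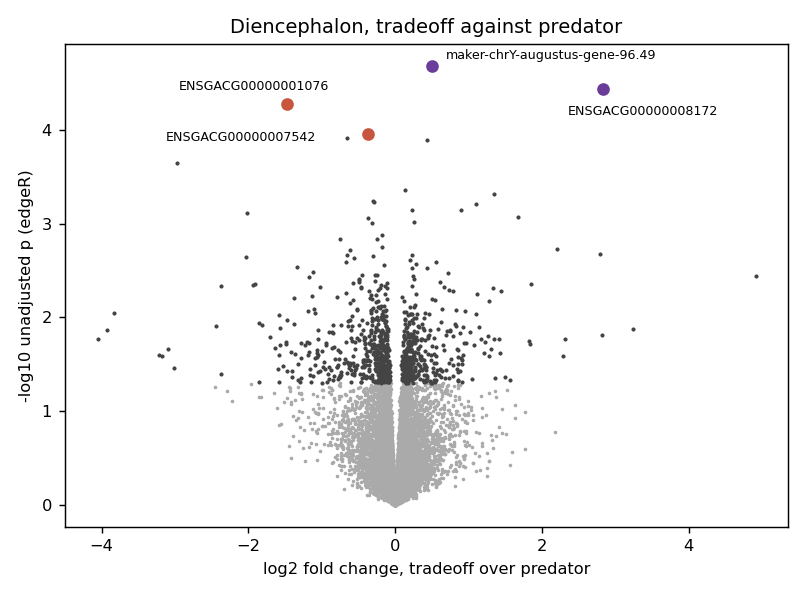
Volcano plot of 18942 genes in the diencephalon. The horizontal axis is the log2 fold change of tradeoff over predator males and the vertical axis is -log10 of the unadjusted edgeR p. Dark points are the 888 genes at an unadjusted p under 0.05 and large points are the 4 genes named in the text, none of which passed the adjusted threshold by edgeR.

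The gene model maker-chrY-augustus-gene-96.49 had the smallest p by edgeR and was higher in tradeoff males. Its level in tradeoff diencephalon was lowest at 3.52 CPM (CPM, counts scaled to a common library size; 103 to 170 reads per library), 3.76 at the median and 4.48 at the highest. In predator diencephalon it was lowest at 2.42 CPM, 2.60 at the median and 3.34 at the highest. Every tradeoff library was thus above every predator library. Of 18942 tested genes, 1 was separated in this direction (0.00528%) and 2 in either direction (0.0106%). The gene was chosen for its small p in these libraries, so the separation is not separate evidence. The means were 3.80 CPM (SD 0.312, n = 8) and 2.69 CPM (SD 0.317, n = 8). The log2 fold change was 0.50 (SE 0.0991), with an adjusted p of 0.333 by edgeR, 0.00696 by DESeq2 and 0.0367 by voom. Control males had 2.95 CPM (SD 0.333, n = 7) and courtship males 3.19 CPM (SD 0.392, n = 8), both between the compared groups. Its level in tradeoff males overlapped that of courtship males, which reached 3.72 CPM. Reads that also align elsewhere, such as on a close X copy, are in no gene's count, so the level of a Y chromosome model is uncertain.

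ENSGACG00000008172 was also higher in tradeoff males, with a wide spread among them. Tradeoff diencephalon had 0.151 CPM in the lowest library, 0.751 at the median and 4.63 in the highest, which was male 13. Predator diencephalon had 0.0499 CPM in the lowest library, 0.141 at the median and 0.341 in the highest, which is 2 to 11 reads per library. Predator males were uniformly low, while 5 tradeoff males lay above all of them and males 6, 11 and 25 lay within their range. The log2 fold change was 2.84 (SE 0.590), with an adjusted p of 0.333 by edgeR, 0.00696 by DESeq2 and 0.999 by voom. Without male 13 the edgeR estimate was 2.1. The gene was tested because the expression filter used all 31 diencephalon libraries. It did not pass that filter among the 16 compared libraries alone. Control males also varied, from 0.123 to 1.67 CPM, with an SD of 0.598 CPM (n = 7) against 1.48 in tradeoff males (n = 8). The control median was 0.995 CPM, above the tradeoff median of 0.751. Courtship males lay between 0.160 and 0.50 CPM.

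ENSGACG00000001076 was lower in tradeoff males, and its predator libraries fell into separate levels. Predator males 37, 34, 17 and 42 had 3.39, 3.91, 4.06 and 5.33 CPM. Predator males 24, 33, 44 and 23 had 11.3, 13.7, 14.1 and 16.1 CPM. Tradeoff diencephalon ran from 1.89 CPM through a median of 3.19 to 5.24. Predator males 37, 34 and 17 thus lay within the range of the tradeoff males, male 42 lay just above it, and the other 4 lay far above it. All 8 predator males were above the tradeoff median. The log2 fold change was -1.48 (SE 0.315), with an adjusted p of 0.333 by edgeR, 0.00696 by DESeq2 and 0.999 by voom. No library of the other treatments reached the level of those 4 males, since controls ended at 6.91 CPM and courtship males at 4.34 CPM.

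ENSGACG00000007542 was lower in tradeoff males by a small amount and with little spread. Tradeoff diencephalon had 6.02 CPM in the lowest library, 6.36 at the median and 7.52 in the highest. Predator diencephalon had 7.42 CPM in the lowest library, 8.40 at the median and 10.8 in the highest, male 42. Only the lowest predator library, male 44, and the highest tradeoff library, male 39, crossed. The log2 fold change was -0.37 (SE 0.0842), with an adjusted p of 0.400 by edgeR, 0.0737 by DESeq2 and 0.793 by voom. Control males had 7.23 CPM (SD 0.401, n = 7) and courtship males 7.49 CPM (SD 1.17, n = 8), both between the compared groups.

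**Figure D2:**
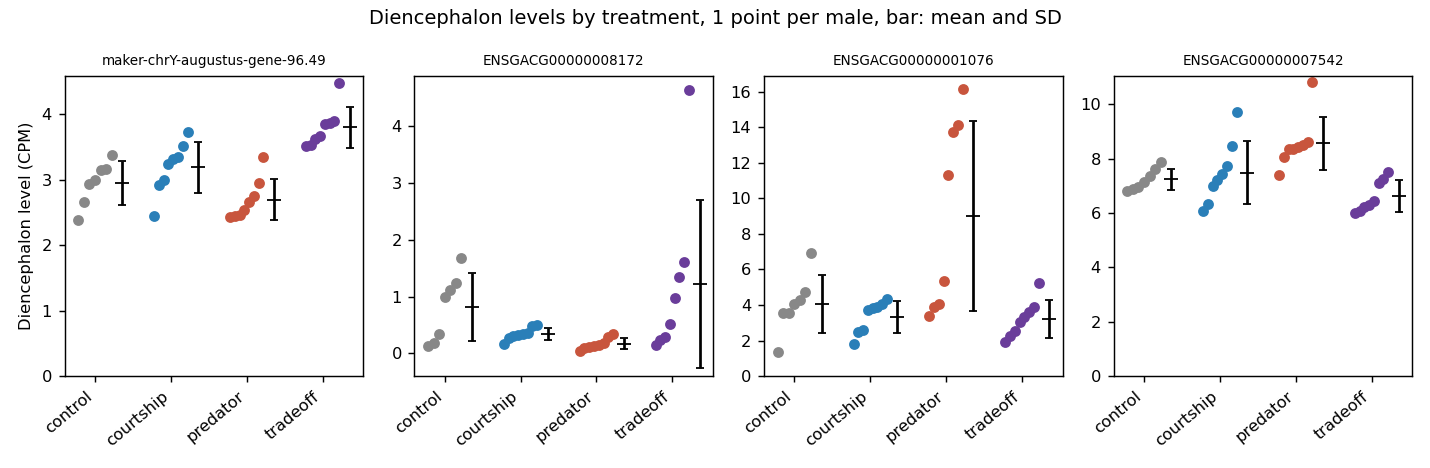
Diencephalon level in CPM of the 4 named genes, 1 point per male, in 7 control, 8 courtship, 8 predator and 8 tradeoff males, sorted by level within each treatment, with the mean and SD beside them. Tradeoff and predator points of maker-chrY-augustus-gene-96.49 do not overlap, 1 tradeoff male of ENSGACG00000008172 lies at 4.63 CPM, and predator males of ENSGACG00000001076 lie at 3.39 to 5.33 or at 11.3 to 16.1 CPM.

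The calls by the other tools depended on single males. With each of the 16 libraries left out in turn, an alternative added after the data were seen, DESeq2 called 1 to 7 genes. It called maker-chrY-augustus-gene-96.49 and ENSGACG00000008172 in 15 of the 16 fits and ENSGACG00000001076 in 13. Without tradeoff male 13 it called none of these 3 genes and 1 other gene. ENSGACG00000001076 was also not called without predator male 23 or male 44. The voom call of maker-chrY-augustus-gene-96.49 held in 5 of the 16 fits. By edgeR no gene passed in any of the 16 fits, and the smallest adjusted p ran from 0.105 to 0.572.

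The 20 genes with the smallest p in each direction were of many levels and mostly of small difference. Those higher in tradeoff males had log2 fold changes of 0.13 to 4.91 with a median of 0.52, and 19 of the 20 were Ensembl models. Those lower had log2 fold changes of -2.97 to -0.15 with a median of -0.47, and all 20 were Ensembl models. Of these 40 genes, 17 higher and 19 lower ones kept an unadjusted p under 0.05 in each of the 16 fits with 1 library left out. They were chosen for an unadjusted edgeR p of at most 0.00357 (higher) or 0.00273 (lower) in the same libraries. Staying under 0.05 is therefore not separate evidence. Over all tested genes, 2 had groups that did not overlap, 0.0106% of 18942. One was the Y chromosome model above (0.00528% for this direction), and the other was an Ensembl model lower in tradeoff males by 0.30 on the log2 scale with a mean of 9.11 CPM (0.00528%).

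Genes at an unadjusted p under 0.05 made up 3.18% to 5.13% of each kind of gene model. They were 857 of 18158 Ensembl models (4.72%), 15 of 472 Y chromosome models (3.18%) and 16 of 312 other models with MAKER names (5.13%), against 4.69% of all genes. Of the 15 Y chromosome models 9 were higher and 6 lower in tradeoff males. Split by reads per gene, a measure that also depends on gene length, the share was 5% of genes under 1 CPM, 5.37% from 1 to 10 CPM, 4.38% from 10 to 100 CPM and 4.1% at 100 CPM and over. In the last class 63 of the 86 genes were estimated lower in tradeoff males, while in the lowest class 52 of 98 were higher. Directions over all genes of each class are not given here, so these counts are not read as a lean of the class. None of these classes held a gene past the adjusted threshold by edgeR.

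Differences were bounded closely for genes with many reads. The standard error of the log2 estimate had a median of 0.0927 over all genes, 0.426 under 1 CPM and 0.0543 at 100 CPM and over. For 89.1% of genes the 95% interval stayed inside 2-fold up or down, and for 77.9% inside 1.5-fold. At 100 CPM and over these shares were 99.2% and 97.7%, and under 1 CPM they were 33.7% and 2.81%. The 396 genes estimated higher had a median log2 fold change of 0.24, and 213 of them differed by less than 1.2-fold. The 492 genes estimated lower had a median of -0.27, and 240 differed by less than 1.2-fold.

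Large estimates often rested on few males. A difference of more than 2-fold was estimated for 35 higher and 72 lower genes among those at an unadjusted p under 0.05. In the 72 genes lower in tradeoff, the highest predator library held a median of 41% of the reads (as CPM) of the predator group, and in 27 genes it held more than 50%. The highest library was that of male 17 in 20 genes, male 34 in 15, male 42 in 14 and male 23 in 13. Leaving out male 17 kept 48 of the 72 at an unadjusted edgeR p under 0.05, and 17 kept it in each of the 16 fits. In the 35 genes higher in tradeoff, the highest tradeoff library held a median of 26.6%, it held more than 50% in 8 genes, and 16 genes kept an unadjusted p under 0.05 in each fit. Among the 8 genes more than 4-fold higher it held a median of 66.1% and more than 50% in 6, and 2 genes kept an unadjusted p under 0.05 in each fit.

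Among 13 genes more than 4-fold lower in tradeoff males, 6 had their highest predator level in male 34, and without that male 7 of the 13 were left at an unadjusted p under 0.05 by edgeR. These 6 genes, singled out after their values were seen and given no test, were high together in the same few libraries. Their median was 30.6 CPM in male 34 and 4.71 CPM in male 17, and 0.0775 to 0.437 CPM in the other 6 predator males. In tradeoff males it was 0.102 to 1.19 CPM. Control male 40 had 43.1 CPM, control male 12 had 5.95 CPM and courtship male 38 had 9.02 CPM. High levels of these genes thus also occurred in males that saw no trout. The part of dissection or cell makeup in them was not tested, and in bulk tissue fewer cells of a type and less RNA per cell cannot be told apart.

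**Figure D3:**
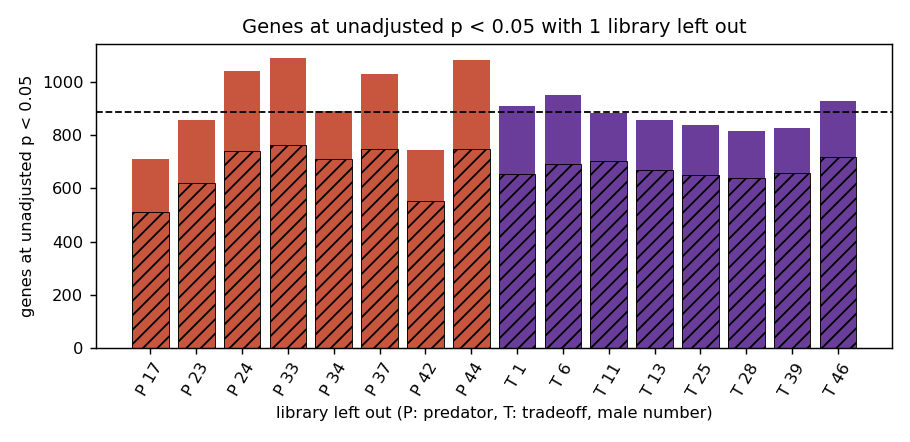
Gene counts at an unadjusted edgeR p under 0.05 with the named library left out of the fit, P for predator and T for tradeoff males. Hatched parts are genes that also had an unadjusted p under 0.05 with all libraries, and the dashed line is the count of 888 with all libraries. Counts run from 709 without predator male 17 to 1089 without predator male 33.

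The set of genes at an unadjusted p under 0.05 changed with the males included. With 1 library left out there were 709 to 1089 such genes, of which 513 to 764 were among the 888. The highest count, 1089 of 18910 tested without predator male 33, was above a share of 0.05. The main count, 888 of 18942, was not, so this depended on the males included. Of the 888 genes, 245 were at an unadjusted p under 0.05 in each of the 16 fits, 113 of them higher and 132 lower in tradeoff males. The smallest counts came without predator male 17 (709) and predator male 42 (743).

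The female effect with the trout was then set beside the female effect without it, courtship against control, which uses none of the same libraries. Of the 888 genes, 598 (67.3%) had the same direction in both, against 10878 of 18942 tested genes (57.4%). The shift was small. Genes estimated higher in tradeoff over predator had a median log2 fold change of 0.05 in courtship over control, and genes estimated lower had -0.05. An unadjusted p under 0.05 in courtship against control, which 4.54% of all genes had, was found for 44 of the 888 in the same direction and 11 in the opposite one. Over all 18942 tested genes these counts were 525 and 335, so the background also leaned to the same direction, but less strongly than the 888. These shares are a description across genes, which are not independent replicates.

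**Figure D4:**
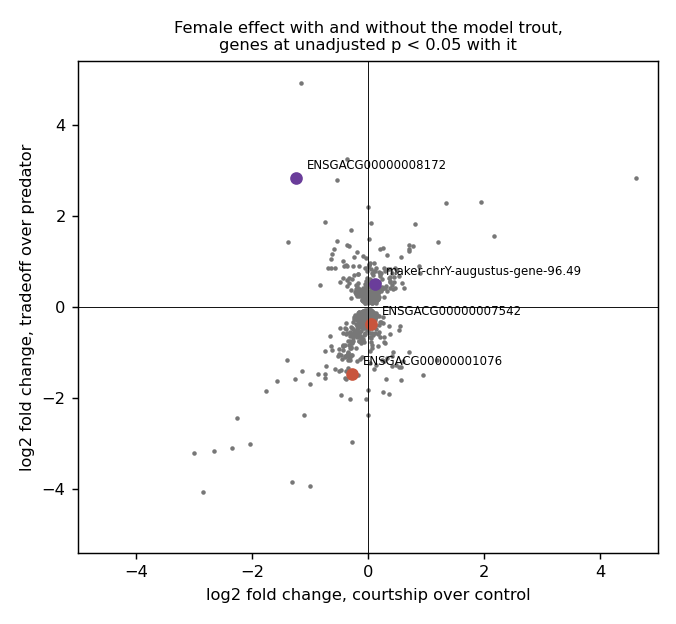
Log2 fold change of tradeoff over predator (vertical) against courtship over control (horizontal) in the diencephalon, for the 888 genes at an unadjusted p under 0.05 in the former. Of these, 598 lie in the lower left or upper right, and ENSGACG00000008172 lies in the upper left at -1.25 and 2.84.

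Whether the female effect differed with the trout was tested as the departure from additivity. No gene passed (0 of 18942, 0%, edgeR quasi-likelihood test, smallest adjusted p = 0.399), with 572 genes (3.02%) at an unadjusted p under 0.05, and DESeq2 called 1 gene and voom 0. The smallest p was that of ENSGACG00000008172, which was lower in courtship than in control males (log2 fold change -1.25, SE 0.57) and higher in tradeoff than in predator males. The difference between these effects was 4.08 (SE 0.817, adjusted p = 0.399 by edgeR). ENSGACG00000011581 had the next smallest p toward a more positive effect with the trout. Its mean was 8.70 CPM (SD 0.651) in 7 controls and 7.03 CPM (SD 0.789) in 8 courtship males. With the trout it was 7.22 CPM (SD 0.890) in 8 predator and 8.31 CPM (SD 0.716) in 8 tradeoff males, for a difference in female effect of 0.51 (SE 0.115, adjusted p = 0.985 by edgeR).

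Toward a more negative effect of the female with the trout, the smallest p was that of ENSGACG00000019072. Its mean was 6.31 CPM (SD 1.02) in 7 controls and 9.23 CPM (SD 1.92) in 8 courtship males. With the trout it was 8.55 CPM (SD 1.84) in 8 predator and 6.42 CPM (SD 2.04) in 8 tradeoff males, for a difference in female effect of -0.96 (SE 0.242, adjusted p = 1.00 by edgeR). Either stimulus alone thus went with a higher mean than the control, and both together had a mean close to it. Tradeoff males ran from 3.51 to 10.1 CPM and controls from 5.04 to 7.63 CPM. The gene was chosen on this contrast, so the pattern of its means is not separate evidence. ENSGACG00000017975 averaged 34.2 CPM (SD 1.07) in 7 controls and 37.9 CPM (SD 0.858) in 8 courtship males. With the trout it averaged 35.3 CPM (SD 1.82) in 8 predator and 33.7 CPM (SD 2.24) in 8 tradeoff males, for a difference in female effect of -0.21 (SE 0.0557, adjusted p = 1.00 by edgeR). For maker-chrY-augustus-gene-96.49, ENSGACG00000001076 and ENSGACG00000007542 the differences were 0.39 (SE 0.143), -1.20 (SE 0.450) and -0.42 (SE 0.121), none past the adjusted threshold by edgeR.

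The telencephalon of the same 16 males, the forebrain region with the pallium and subpallium, was read beside the diencephalon. ENSGACG00000001076 was high in the telencephalon of the same predator males, at 9.33 CPM in male 24, 12.4 in male 33, 13.6 in male 44 and 14.9 in male 23. Males 37, 34 and 17 had 1.80, 1.90 and 2.99 CPM there. Male 42 differed between regions, at 5.33 CPM in the diencephalon against 15.2 in the library that stands apart. In the telencephalon edgeR put the log2 fold change at -1.59 (SE 0.391, adjusted p = 0.519) from all males. Leaving out male 42 gave -1.44 (SE 0.395, adjusted p = 0.238, edgeR).

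ENSGACG00000008172 was high in both regions in some males and not in others. Tradeoff males 13, 46, 1 and 28 had the highest telencephalon levels of their group, 4.23, 1.44, 0.939 and 0.911 CPM, and were also the highest in the diencephalon. Tradeoff male 39, above all predator males in the diencephalon at 0.524 CPM, was the lowest of its group in the telencephalon at 0.128 CPM. Predator males 23 and 44 changed places, with 0.0499 and 0.284 CPM in the diencephalon against 0.330 and 0.0252 CPM in the telencephalon. In reads these were 2 and 11 against 14 and 1. Control male 30 had 0.123 CPM in the diencephalon, the lowest of its group, and 0.766 CPM in the telencephalon. Male 39 had 18 reads in the diencephalon and 4 in the telencephalon, and male 30 had 4 and 21. The contrasts between regions in these 4 males thus rest on few reads. For this gene in the telencephalon edgeR put the log2 fold change at 2.48 (SE 0.699, adjusted p = 0.613) from all males. Leaving out male 42 gave 2.64 (SE 0.737, adjusted p = 0.238, edgeR). Since both regions come from the same animals, these values are not separate evidence of a treatment effect.

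The other named genes are given in the same way. maker-chrY-augustus-gene-96.49 had 2.79 CPM in tradeoff (SD 0.580, n = 8) and 2.29 CPM in predator telencephalon (SD 0.358, n = 8), or 2.31 CPM without male 42 (SD 0.381, n = 7), and the groups overlapped. Its telencephalon log2 fold change had the same direction as in the diencephalon, 0.28 (SE 0.139, adjusted p = 0.931, edgeR), or 0.27 without male 42 (SE 0.147, adjusted p = 0.460, edgeR). The difference between the regions was 0.22 (SE 0.161, adjusted p = 1.00, edgeR), or 0.23 (SE 0.175) with the male as a block. Tradeoff male 13, the highest in the diencephalon, was the lowest of its group in the telencephalon at 1.85 CPM. ENSGACG00000007542 was low in the telencephalon, at 0.0335 to 0.864 CPM in tradeoff males and 0.0328 to 0.797 CPM in 7 predator males, while male 42 had 14.0 CPM there. In the telencephalon edgeR put the log2 fold change at -2.42 (SE 1.00, adjusted p = 0.869) from all males. Leaving out male 42 gave 0.50 (SE 0.773, adjusted p = 0.836, edgeR).

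**Figure D5:**
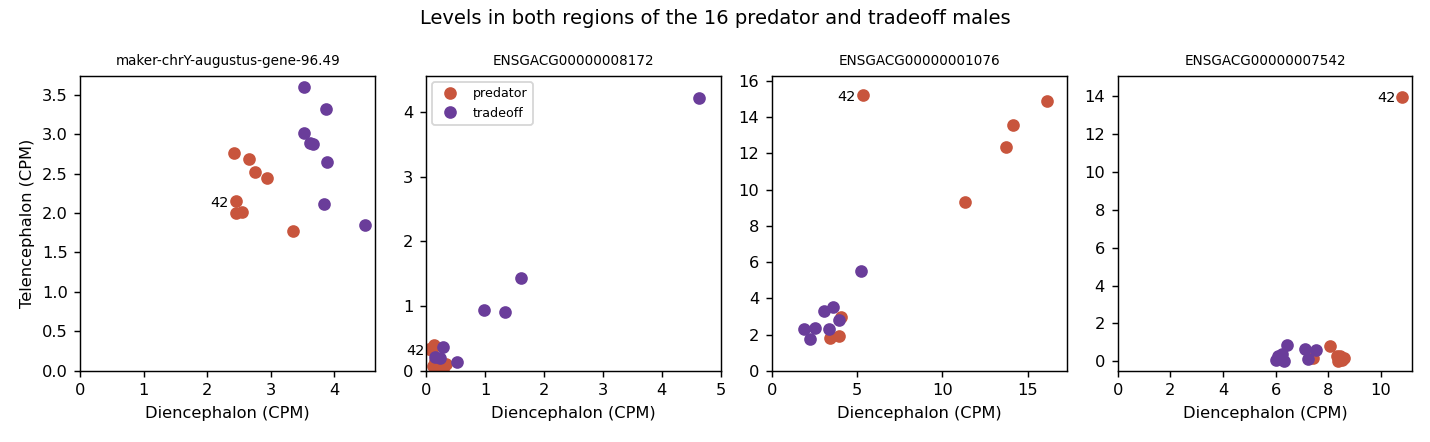
Telencephalon level (vertical, CPM) against diencephalon level (horizontal, CPM) of the 4 named genes in 8 predator and 8 tradeoff males, with male 42 labelled. ENSGACG00000001076 is high in both regions in 4 predator males, ENSGACG00000008172 is high in both in tradeoff male 13, and ENSGACG00000007542 is near 0 in the telencephalon of all males but 42.

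Of the 888 diencephalon genes, 845 were tested in the telencephalon and 650 (76.9%) had the same direction there, against 62.1% of all 18532 genes tested in both. Without male 42 these shares were 61.3% and 53.1%. The difference between the regions in the tradeoff against predator effect gave 0 of 19321 genes past the threshold (0%, edgeR quasi-likelihood test), with 481 (2.49%) at an unadjusted p under 0.05. With the male as a block it gave 0 and 829 of 19321. Without male 42 it gave 0 and 1619 of 19297 genes. Both changes together, an alternative added after the data were seen, gave 6 and 3231 of 19297. Of the 6 genes that passed, 4 had a higher effect in the diencephalon and 2 a lower one. Both unadjusted counts without male 42 were above a share of 0.05, most of all with the male as a block. Those of the main fit and of the block with all males were below it.

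The genes with the smallest p for a difference between regions had single or few high libraries. ENSGACG00000018848 and ENSGACG00000018842 had lower tradeoff over predator effects in the diencephalon, with differences of -5.07 (SE 1.1) and -5.20 (SE 1.16), both at an adjusted p of 0.360 by edgeR. Their telencephalon levels in tradeoff males reached 48.9 and 75.2 CPM in male 39, against medians of 0.840 and 1.02. In predator diencephalon they reached 14.7 and 23.7 CPM in male 23, against medians of 1.22 and 1.48. With the male as a block the differences were -1.82 (SE 0.833) and -1.38 (SE 0.855), both at an adjusted p of 1.00 by edgeR. Without male 42 they were -5.17 (SE 1.16) and -5.47 (SE 1.24), both at an adjusted p of 0.245 by edgeR. Toward a higher effect in the diencephalon, ENSGACG00000004579 had 0 reads in every telencephalon library but that of male 42, which had 98. ENSGACG00000009621 had 0.0329 to 0.235 CPM in predator telencephalon other than male 42, which had 46.0. Without male 42 the difference of ENSGACG00000009621 was -1.36 (SE 0.584, adjusted p = 0.521 by edgeR), compared with 4.30 (SE 1.12, adjusted p = 0.676) with that male.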

How the data were processed

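Polyadenylated RNA of the diencephalon and telencephalon of 31 males was sequenced in 1 lane from a stranded kit, per the labels' protocols. The authors deposited 1 file of raw read counts for each library, with a row per gene model, made with STAR and HTSeq per the submitters' processing notes. For the versions, build, annotation and strand setting nothing is stated in the labels, so a gene and an overlapping antisense gene cannot be assumed separated. The tally lines were left out of library sizes, and reads with no gene model were 41.0% to 48.6% of tallied reads in the 16 libraries.

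The 31 diencephalon libraries were fitted in 4 treatment groups with edgeR 4.0.16 in R 4.3.3 (filterByExpr with minimum count 10 and minimum total 15, TMM, robust quasi-likelihood, Benjamini-Hochberg adjustment over all genes). CPM values use TMM-scaled library sizes. Standard errors of edgeR estimates were derived from the test, as the absolute log2 fold change over the square root of its F value. The intervals rest on these derived standard errors. The difference between regions was fitted on 62 libraries, where same-numbered libraries come from the same male. Except where the male is named as a block, that fit treated them as independent. Their deviations from group means correlated at 0.198 to 0.550 (mean 0.380, 31 males). Alternatives used DESeq2 1.42.0, voom (limma 3.58.1), other scaling, filters and library sets, the regional index (500 genes per side, prior count 2) as a covariate, and each of 16 libraries left out.

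The comparison, gene lists and tests were chosen with earlier results of these data known. The 15 gene lists given by symbol were not tested, because 0 identifiers matched the name table (assembly fGasAcu3.hap1.1). Named genes are those with the 2 smallest p in each direction of a comparison. The 4 named for the female with the trout were chosen on that contrast, and their values describe it.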

Additional observations from a re-analysis of the deposited data

Results flagged for a closer look

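In 56 groups of values, the highest or lowest library was compared with the rest by Dixon's test, and 8 groups had a library far from the others. Chance flags about 1 in 20 groups when values are normally distributed. The named genes were chosen on these libraries and both regions share males, so 8 of 56 is not read as an excess. In tradeoff diencephalon, male 13 was far above the others for maker-chrY-augustus-gene-96.49 (4.48 CPM, next 3.89) and for ENSGACG00000008172 (4.63 CPM, next 1.60). In tradeoff telencephalon the same male was far above for ENSGACG00000008172 (4.23 CPM, next 1.44). Predator male 42 was far above for ENSGACG00000007542 in the diencephalon (10.8 CPM, next 8.61) and in the telencephalon (14.0 CPM, next 0.797). For ENSGACG00000001076 in the telencephalon, control male 12 had 5.75 CPM (next 3.10) and tradeoff male 1 had 5.52 CPM (next 3.52). The share of reads ambiguous between gene models was 0.767% in predator male 23 (next 0.706%).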

How the results depend on the processing

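For tradeoff against predator diencephalon, 0 genes passed by edgeR with size factors by relative log expression, with no expression filter, with the regional index as a covariate, with 16 libraries alone and with all 62 libraries. With 16 libraries alone the edgeR adjusted p was 0.998 for maker-chrY-augustus-gene-96.49, ENSGACG00000001076 and ENSGACG00000007542, against 0.333, 0.333 and 0.400 in the main fit. With the regional index it was 0.946 for ENSGACG00000008172 and ENSGACG00000007542. For maker-chrY-augustus-gene-96.49 and ENSGACG00000001076 it was 0.290 with the index. DESeq2 called 3 and voom 1, and with 1 library left out the count was 0 for edgeR, 0 to 2 for voom and 1 to 7 for DESeq2 (7 without male 17, 5 without male 33, 34 or 39, 1 without male 13). Genes with an unadjusted p under 0.05 numbered 575 of 19321 with all 62 libraries, against 888 of 18942 in the main fit. They numbered 709 to 1089 with 1 library left out. Under the other alternatives they ran from 630 of 18942 with the regional index to 1145 of 21759 with no expression filter. The counts with no filter, by DESeq2 (946 of 18898) and in some fits with 1 library left out were above a share of 0.05. For the departure from additivity DESeq2 called 1 gene and the 4 other alternatives 0. For the difference between regions DESeq2 called 3 genes, the replicate block by male called 0, and the block without male 42 called 6. The cause of these differences was not tested. The log2 fold changes of the 4 named genes kept their direction in all 91 values obtained under alternatives. The genes were chosen on this contrast and the alternatives reuse its libraries, so this is not separate evidence. ENSGACG00000008172 did not pass the expression filter among the 16 libraries alone and has no value in that fit. With 1 library left out the first principal component differed between the groups at an exact permutation p of 0.0263, 0.0479 and 0.0437 without males 17, 25 and 28, before adjustment, and 3 of 192 such values passed 0.05. No paired analysis was possible within the diencephalon because each male has 1 library there. Under 1 CPM, 33.7% of genes had an interval within 2-fold, and the parts of depth and of spread between males in this were not tested.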
